A study of Sus scrofa with 45 samples.

Results

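MX1, MX2, RSAD2, IFIT1, ISG20, IFITM1, XAF1 and SAMD9 are 8 antiviral effector genes that interferon is known to induce. They were read in the blood of miniature pigs from every probe whose gene name, RefSeq accession or description names one of them, RSAD2 also under its porcine name IRG6. These rules found 12 probes of 8 genes, among 3678 probes with a gene symbol that stand for 2498 genes on an array of 43603 probes. In an infected or alarmed cell, interferon binds its receptor, and the signal passes to the nucleus and switches on many genes at once. The proteins of such genes block virus entry, copying or translation, and white blood cells carry a low level of their transcripts at rest. Blood levels of these transcripts are widely used as a readout of interferon exposure.

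The study fed male, specific pathogen-free Clawn miniature pigs from 12 weeks of age and sampled their blood after 10, 19 and 27 weeks of feeding. The control groups received the standard diet, the HFCD groups a high-fat, high-cholesterol diet with 15% lard and 2% cholesterol, and the HFCSD groups the same additions and 37% sucrose. RNA came from whole blood (PAXgene kit) in all 3 weeks and from white blood cells (LeukoLOCK kit) at 27 weeks, which gives 12 groups of sample type, week and diet on 45 arrays. Each group had 4 arrays, except whole blood of HFCSD at 19 weeks and of HFCD and HFCSD at 27 weeks, which had 3 each, and these numbers limit the precision of every value. Levels are log2 processed intensities after quantile normalization over the 45 arrays, and a difference of such levels is called a change. The scanner software flagged 35.4% to 53.3% of an array's probe spots as well above background. White blood cells were scanned on another day than whole blood, and the weeks were scanned on different days, so sample type cannot be told apart from kit and scan day, nor week from scan day.

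A probe of 7 of these genes was well above background on all 45 arrays, and that of IFIT1 was not. The IFIT1 probe, for a protein that binds viral RNA lacking the host's cap marks, was well above background on 0 arrays, with levels of 1.41 to 3.55. It entered no comparison except in an alternative fit without a filter on signal. Its description names the human protein, and so do those of SAMD9 (human) and XAF1 (bovine), each for a porcine transcript that matches the protein in part. MX1 and MX2 had 2 bright probes each. ISG20 and XAF1 had 1 bright probe and 1 dim probe each, the dim ones well above background on 1 and 2 of 45 arrays. For ISG20 the bright probe (A_72_P028631) is described by the pig protein's entry name, and the dim probe (A_72_P088361) by the RefSeq transcript. The ISG20 values below, with its 1 diet call, come from the bright probe. That probe carries the name of a transcript cluster, not of the gene. Its sequence was not aligned to the pig genome, so its identity as ISG20 is uncertain. Where a gene had several probes, the one with the highest mean stands for it.

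The probe pairs of MX1 and MX2 show how far a gene's readings rest on separate sequence, so the ends that differ are printed here, with the dim and the bright ISG20 probe beside them. The MX1 probes share 45 of their 60 bases, and capitals mark bases that lie in the shared stretch. The MX2 probes share a run of no more than 6 bases, and the ISG20 probes one of no more than 5. Each line gives 30 bases, from the 5′ end of the probe except for the second MX1 probe, which is shown from its 3′ end.
MX1 A_72_P302839: tacagccacctgtgtGGATGGATGCACATA
MX1 A_72_P010326: TATTTGTAATAAACTtggttctaccagcaa
MX2 A_72_P001276: cgtgtgtgtgaatgagtctttgttctggca
MX2 A_72_P177406: agttggcaaaatttgtactaggttaaaaat
ISG20 A_72_P028631: gaggacttcatctcttcaagacaaaaactc
ISG20 A_72_P088361: tcggtggaagatgcgaaggcaacgatggag

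Of the 8 genes, 7 matched the RefSeq annotation of the pig (Sscrofa11.1), and SAMD9 did not. MX1 and MX2 are neighbours on chromosome 13. RSAD2 lies beside CMPK2 on chromosome 3, IFIT1 beside IFIT3 on chromosome 14, and IFITM1 beside IFITM3 and IFITM5 on chromosome 2. ISG20 is on chromosome 1 and XAF1 on chromosome 12. Apart from the MX pair, no 2 of the matched genes were neighbours.

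**Figure D1:**
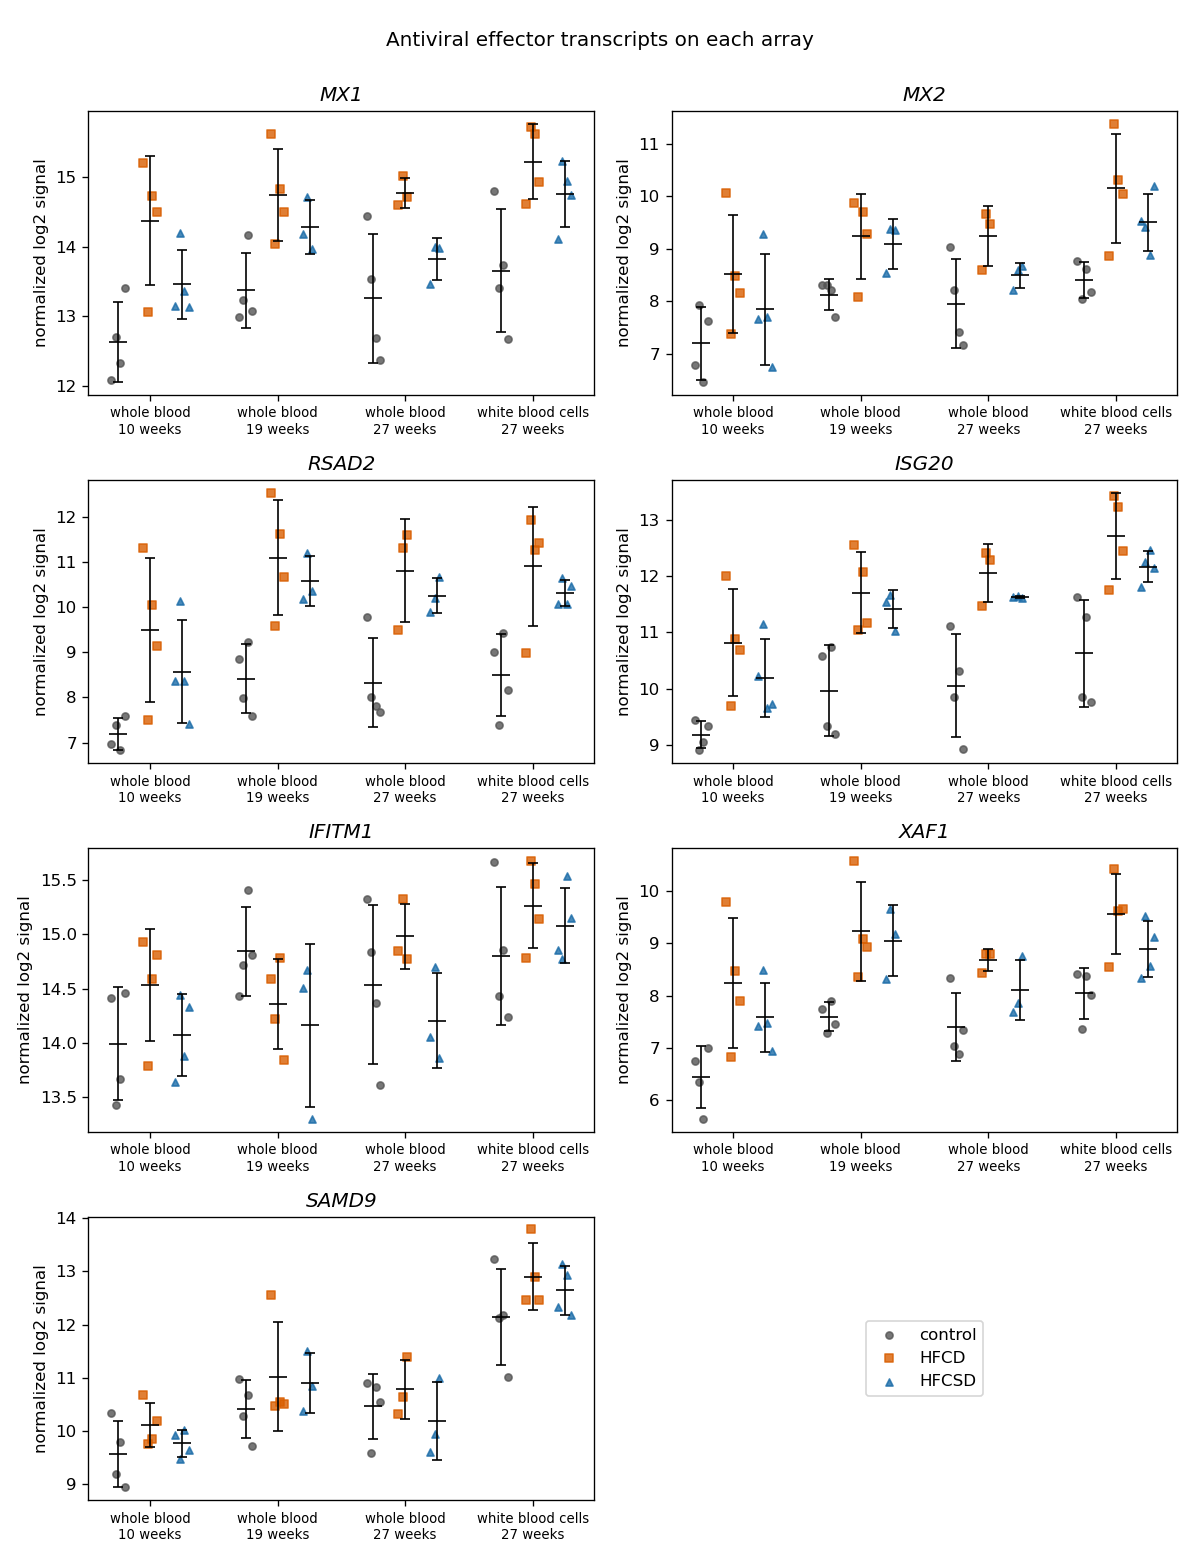
Normalized log2 signal (vertical axis) of the 7 genes with a bright probe, by sample type and week (horizontal axis) and diet. Each point is 1 array, and the bars give the mean and SD of a group of 3 or 4 arrays. All ISG20 arrays of both diets lie above all control arrays of the same week and sample type, and SAMD9 is highest in the 3 white blood cell groups.

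ISG20, a nuclease that degrades single-stranded RNA, separated the diets from control most fully. In whole blood at 10 weeks its level was 9.44, 8.90, 9.05 and 9.32 in control, 12.01, 9.68, 10.88 and 10.69 in HFCD, and 10.22, 11.16, 9.65 and 9.73 in HFCSD. At 19 weeks it was 10.59, 9.34, 10.74 and 9.18 in control, 12.55, 11.05, 12.08 and 11.17 in HFCD, and 11.54, 11.68 and 11.03 in HFCSD. In both weeks the lowest array of each diet exceeded the highest control array. At 27 weeks the ISG20 level was 11.12, 9.84, 10.31 and 8.92 in control, 11.48, 12.42 and 12.29 in HFCD, and 11.63, 11.65 and 11.61 in HFCSD. White blood cells of that week had 11.63, 9.86, 11.27 and 9.77 in control, 11.77, 13.44, 13.24 and 12.45 in HFCD, and 11.82, 12.26, 12.48 and 12.14 in HFCSD. Here too no diet array overlapped the control arrays, although control replicate 1 was close below the lowest diet array in both sample types. The folds over control ran from 2.01 (HFCSD, 10 weeks) to 4.28 (HFCD, white blood cells).

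RSAD2 encodes viperin, a radical SAM enzyme that makes a chain-terminating nucleotide. It had the widest span of the 7 genes, from a group mean (SD) of 7.19 (0.36) in control whole blood at 10 weeks to 11.10 (1.27) in HFCD whole blood at 19 weeks, a 15-fold difference. At 10 weeks its level was 6.97, 7.38, 6.83 and 7.60 in control, 11.31, 7.51, 10.04 and 9.15 in HFCD, and 8.37, 10.14, 8.36 and 7.42 in HFCSD, so that 1 array of each diet lay within the control range. At 19 weeks RSAD2 read 8.86, 7.98, 9.23 and 7.60 in control, 12.54, 9.58, 11.61 and 10.66 in HFCD, and 10.18, 11.20 and 10.35 in HFCSD, with no overlap of either diet with control. At 27 weeks whole blood had 9.79, 8.02, 7.80 and 7.68 in control, 9.504, 11.31 and 11.61 in HFCD, and 9.90, 10.20 and 10.68 in HFCSD. Control replicate 1 stood well above the other control arrays and above HFCD replicate 1. In white blood cells RSAD2 read 9, 7.39, 9.42 and 8.16 in control, 8.98, 11.93, 11.27 and 11.43 in HFCD, and 10.08, 10.64, 10.08 and 10.47 in HFCSD, with HFCD replicate 1 inside the control range and the other diet arrays above it. RSAD2 thus had all diet arrays above control in 4 of the 8 diet comparisons, with folds of 2.59 to 6.41 over all 8. Of all probes, 0.661% to 11.3% separated so in a diet comparison, a range that applies to the tallies of the other genes as well.

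MX1 and MX2 are dynamin-like GTPases that trap viral particles, MX1 mainly in the cytoplasm. At 10 weeks the MX1 level was 12.09, 12.70, 12.34 and 13.40 in control, 15.20, 13.06, 14.73 and 14.50 in HFCD, and 13.15, 14.19, 13.37 and 13.14 in HFCSD. At 19 weeks it was 12.999, 13.24, 14.17 and 13.08 in control, 15.61, 14.04, 14.83 and 14.50 in HFCD, and 14.18, 14.71 and 13.96 in HFCSD. In both weeks the diet groups stood higher, and they overlapped with control through 1 control array alone, replicate 4 at 10 weeks and replicate 3 at 19 weeks. At 27 weeks MX1 read 14.44, 13.53, 12.68 and 12.38 in control whole blood, 14.59, 15.01 and 14.71 in HFCD, and 13.47, 13.999 and 13.99 in HFCSD. White blood cells had 14.79, 13.40, 13.74 and 12.68 in control, 14.60, 15.72, 15.62 and 14.92 in HFCD, and 14.11, 15.22, 14.95 and 14.74 in HFCSD. By this probe, all MX1 arrays of a diet lay above control in HFCD whole blood at 27 weeks alone. By the second probe both diets at 19 weeks did, with lowest levels of 13.78 (HFCD) and 13.46 (HFCSD) against a highest control level of 13.40, and HFCD at 27 weeks overlapped (13.87 against 14.04). The folds of MX1 over control were 2.59 to 3.34 under HFCD and 1.47 to 2.14 under HFCSD. The second probe gave 2.65 to 3.13 and 1.49 to 2.18, from largely the same bases.

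MX2 had folds of 2.15 to 3.36 under HFCD and 1.45 to 2.14 under HFCSD with its first probe. The second probe, of separate sequence, gave 2.79 to 4.19 and 1.69 to 3.09. Each probe had all diet arrays above control in 3 of 8 comparisons, HFCSD at 19 weeks and both diets in white blood cells. A probe described as a fragment of an Mx protein, which names neither gene, was not counted. Its group means ran from 6.70 (SD 0.56) in control whole blood at 10 weeks to 8.83 (SD 0.96) in HFCSD white blood cells.

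XAF1 binds the apoptosis inhibitor XIAP and promotes cell death after interferon. Its folds were 2.42 to 3.50 under HFCD and 1.63 to 2.74 under HFCSD, and it had all diet arrays above control in 4 of 8 comparisons, HFCD and HFCSD at 19 weeks and HFCD at 27 weeks in both sample types. Its lowest group mean was 6.44 (SD 0.59) in control whole blood at 10 weeks and its highest 9.56 (SD 0.76) in HFCD white blood cells.

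IFITM1 and SAMD9 differed from the other genes in that no diet comparison separated their arrays. IFITM1, a membrane protein that hinders the fusion of viral envelopes, was lower than control in 3 of 8 diet comparisons. At 19 weeks it read 14.44, 14.71, 15.41 and 14.81 in control, 14.59, 14.22, 14.79 and 13.84 in HFCD, and 14.51, 14.68 and 13.30 in HFCSD, with the lowest arrays in the diet groups and wide overlap. Its changes ran from −0.68 to 0.54, none of them past the unadjusted threshold of 0.05. SAMD9, which restricts poxviruses, had changes of −0.28 to 0.77, none past that threshold either, and was lower than control in HFCSD whole blood at 27 weeks alone. For IFITM1 a pair of probes described by the older name Leu-13/9-27 was left uncounted, since several proteins of that family carry it. The brighter had group means of 6.56 (SD 0.32) to 8.62 (SD 0.85), and the other reached a group mean of 4.08 at most.

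Ordered by group mean, HFCD white blood cells ranked first for 6 of the 7 bright genes, and for RSAD2 HFCD whole blood at 19 weeks did. Control whole blood at 10 weeks ranked last for all 7. Most neighbours in these orders did not differ beyond their spread. The gap to the next group exceeded the larger SD of the pair in 1 of 11 steps for MX1, RSAD2, XAF1 and SAMD9, and in 0 of 11 for MX2, ISG20 and IFITM1. For RSAD2 and XAF1 that step set control whole blood at 10 weeks below the rest. For SAMD9 it set the 3 white blood cell groups above all whole blood groups, and for MX1 it lay between HFCSD whole blood at 19 weeks and at 27 weeks.

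Single arrays were high or low in most of the genes together. In HFCD whole blood at 10 weeks, replicate 1 was the highest of its group in all 7 genes and replicate 2 the lowest in all 7. At 19 weeks HFCD replicate 1 was highest in 6 genes and replicate 2 lowest in 6, and HFCSD replicate 2 was highest in 7. Control replicate 1 was highest in 7 genes in whole blood at 27 weeks and in 6 in white blood cells. In HFCD white blood cells replicate 2 was highest and replicate 1 lowest in all 7 genes.

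**Figure D2:**
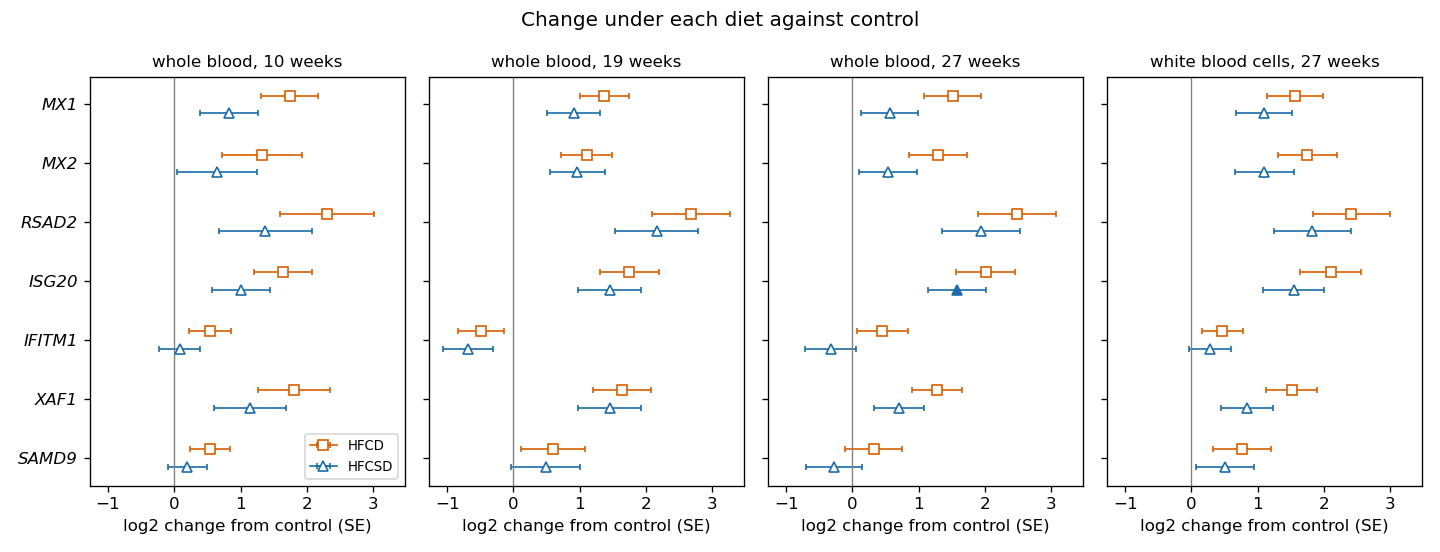
Log2 change of the 7 genes from control (horizontal axis, bars give the SE) under HFCD (squares) and HFCSD (triangles), by sample type and week. The filled triangle marks ISG20 under HFCSD in whole blood at 27 weeks, the 1 change with an adjusted p under 0.05. HFCSD lies to the left of HFCD in all 28 pairs, and IFITM1 lies left of 0 in 3 of its 8 points.

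Whether the diets altered these genes was asked first at 10 weeks. In HFCD whole blood all 7 genes averaged higher than in control. RSAD2 was 4.94-fold, XAF1 3.50-fold, MX1 3.34-fold, ISG20 3.11-fold and MX2 2.50-fold higher, and IFITM1 and SAMD9 1.45-fold and 1.46-fold. The median change was 1.64, against 0.09 over all probes tested. Under HFCSD all 7 genes also averaged higher, with a median change of 0.83 against −0.0088 for all probes, though IFITM1 (0.08) and SAMD9 (0.20) barely moved. Under limma with Benjamini-Hochberg adjustment at 0.05, 0 of 9 probes passed for HFCD, where 0.0281% of all probes tested did, and 0 of 9 for HFCSD, where 0.0123% did. Without adjustment, p was under 0.05 for 7 of 9 probes under HFCD (10% of all probes) and 1 of 9 under HFCSD (1.73%). The t-test of the study's methods gave 0 after adjustment for either diet, where 0% of all probes passed too. ISG20 alone had all diet arrays above control, 1 of 9 probes for HFCD (2.96% of all probes) and for HFCSD (0.661%). Within the 3 slides that held both groups, the median difference of the genes was 1.19 to 3.04 for HFCD and 0.27 to 1.25 for HFCSD. The IFITM1 change under HFCSD turned to −0.0088 with the bright share of each array (spots well above background) as a covariate, and turned sign when any of 4 arrays was left out (−0.11 to 0.24 over all arrays left out), and that of SAMD9 did so without control replicate 4 (−0.0090).

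At 19 weeks RSAD2 again stood out, at 6.41-fold of control under HFCD and 4.47-fold under HFCSD. ISG20 was 3.36-fold and 2.74-fold higher, XAF1 3.11-fold and 2.74-fold, MX1 2.59-fold and 1.88-fold, and MX2 2.15-fold and 1.95-fold. All arrays of the diet lay above control for RSAD2, ISG20 and XAF1 under both diets and for MX2 under HFCSD. IFITM1 averaged lower under both diets, with changes of −0.49 and −0.68. With 1 array left out, these ran from −0.63 to −0.30 under HFCD and from −0.94 to −0.25 under HFCSD. The median change was 1.37 under HFCD and 0.97 under HFCSD, against −0.03 and 0.04 over all probes. Under limma, adjustment left 0 of 9 probes for HFCD (0.0181% of all probes did) and 0 of 9 for HFCSD (0.0175%), and 7 of 9 had an unadjusted p under 0.05 for each diet (12.5% and 11.9% of all probes). The methods' t-test gave 0 after adjustment for both (0% of all probes). Probes whose diet arrays all lay above control numbered 4 of 9 for HFCD (3.41% of all probes) and 6 of 9 for HFCSD (10.7%). In a fit of all 45 arrays at once, where 3.19% of all probes passed for HFCD, 5 of these 9 did, namely RSAD2, ISG20, XAF1 and the second probes of MX1 and MX2, with adjusted p of 0.0224 to 0.0490. Over the other alternatives RSAD2, ISG20 and XAF1 reached an adjusted p of 1.0 with the slide as a fixed block.

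The slides of week 19 bear on these values. Control replicates 2 to 4 had a scan day of their own, and control replicate 1 was scanned with the diet arrays. Against that 1 control array the median difference was 1.12 for HFCD and 0.83 for HFCSD. The 1 slide that held both a control and a HFCD array (replicates 1 and 2) gave 0.46, and with the slide as a fixed block the medians were 0.46 for HFCD and −0.29 for HFCSD, each resting on that slide. Diet and scan day could therefore not be told apart for most of the week 19 control arrays. HFCD replicate 1 of this week was the highest array for 6 of the genes, and without any 1 array the HFCD median stayed between 1.08 and 1.64.

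At 27 weeks in whole blood, ISG20 rose under HFCSD, the 1 diet change among these genes to pass adjustment. Its mean was 11.63 (SD 0.020) against 10.05 (SD 0.92) in control, a change of 1.58 (SE 0.44) and 2.99-fold. All 3 HFCSD arrays lay above all 4 control arrays, and limma's adjusted p was 0.0471. RSAD2 was 3.82-fold higher with all 3 arrays above control and an adjusted p of 0.0587, which ran from 0.0429 to 0.235 over the alternatives and passed in 2 of them. MX1 (1.47-fold), MX2 (1.45-fold) and XAF1 (1.63-fold) overlapped with control, and IFITM1 and SAMD9 averaged below it, with changes of −0.33 and −0.28. The call count was 1 of 9 probes where 10.6% of all probes passed. The median change of the 7 genes was 0.56 and that of all probes −0.21. The former ran from 0.27 to 1.11 over the alternatives and from 0.27 to 0.95 with 1 array left out. Unadjusted p was under 0.05 for 2 of 9 probes (32.2% of all probes), and 2 of 9 had all diet arrays above control (11.3%).

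The ISG20 call was lost when any 1 of the 7 arrays was left out, with adjusted p of 0.0516 to 0.129 and changes of 1.21 (without control replicate 4) to 1.94 (without control replicate 1). The adjusted p was 0.0581, 0.0986, 0.0889 and 0.0516 without control replicates 1 to 4, and 0.129, 0.111 and 0.0690 without HFCSD replicates 1 to 3. Over the other alternatives it ran from 0.0401 to 0.151. The methods' t-test gave 0 of 9 after adjustment, where 142 of 17135 probes passed. The HFCSD arrays of this week had the lowest mean share of spots well above background, 39.4% against 46.2% in control. With that share as a covariate the ISG20 change was 2.26 and did not pass, where 0% of all probes passed. The SAMD9 change turned to 0.0090 without HFCSD replicate 1, and the IFITM1 change to 0.34 with the covariate. Within the 2 slides that held both groups, the median difference was 0.47 and 1.04.

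HFCD whole blood at 27 weeks averaged higher than control in all 7 genes. RSAD2 was 5.59-fold, ISG20 4.04-fold, MX1 2.85-fold, MX2 2.45-fold and XAF1 2.42-fold higher, and the arrays of MX1, ISG20 and XAF1 all lay above control. The median change was 1.29, against −0.03 over all probes, and 1.28 to 1.58 within the 2 slides that held both groups. Adjustment in limma left 0 of 9 probes, where 0.0165% of all probes did, and the lowest adjusted p was 0.887, for ISG20 with a change of 2.01 and all 3 diet arrays above all control arrays. Unadjusted p was under 0.05 for 7 of 9 probes (5.55% of all probes), and the methods' t-test gave 0 after adjustment (0% of all probes). Probes whose diet arrays all lay above control were 3 of 9 (1.77% of all probes).

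White blood cells at 27 weeks were compared within their own sample type. Under HFCD RSAD2 was 5.32-fold, ISG20 4.28-fold, MX2 3.36-fold, MX1 2.95-fold and XAF1 2.85-fold higher, and under HFCSD 3.54-fold, 2.92-fold, 2.14-fold, 2.14-fold and 1.79-fold. IFITM1 and SAMD9 also averaged higher under both diets, so that all 7 genes did, with median changes of 1.56 and 1.1 against 0.02 and 0.01 over all probes. MX2, ISG20 and XAF1 under HFCD and MX2, RSAD2 and ISG20 under HFCSD had all diet arrays above control. With limma 0 of 9 probes passed adjustment for HFCD (0.0276% of all probes did) and 0 of 9 for HFCSD (0.0366%). Unadjusted p was under 0.05 for 7 of 9 (4.73% of all probes) and 6 of 9 (11.3%). By the methods' t-test 0 passed adjustment for both, where 0.0166% and 0% of all probes did. All diet arrays lay above control for 4 of 9 probes under each diet (1.87% and 3.92% of all probes). Within the 3 slides the median difference was 1.41 to 2.04 for HFCD and 0.68 to 1.30 for HFCSD.

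Over the 8 diet comparisons together, 1 of 72 probe tests passed adjustment in limma, where 0.0123% to 10.6% of all probes did in a comparison. An unadjusted p under 0.05 was found for 44, all 44 of them higher in the diet group. Of all probes 1.73% to 32.2% had such a p in a comparison, in either direction. Both diets of a week share its control arrays, so the comparisons are not independent. By the fold of 2 and unadjusted threshold of the methods' t-test, 36 of 72 passed (3.29% of all probe tests), and 0 of 72 did after adjustment.

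Cell markers moved with these changes in part. Of 11 platelet markers 6 were on the array, PF4 with the highest signal, and all 6 averaged lower than control under HFCD in every week and sample type, with median changes of −0.74, −1.56 and −0.95 in whole blood and −1.16 in white blood cells. Under HFCSD the medians were −0.05, −0.51, −1.15 and −0.53. With limma 0 platelet markers passed adjustment in any diet comparison, and up to 4 of 6 had an unadjusted p under 0.05. For all probes that share ran from 1.73% to 32.2% over the diet comparisons. The summed platelet signal was 14.91 (SD 0.32), 14.64 (SD 0.17) and 15.06 (SD 0.15) in control whole blood at 10, 19 and 27 weeks and 14.15 (SD 0.11), 13.22 (SD 1.65) and 14.17 (SD 0.22) in HFCD, on the log2 scale. In white blood cells it was 11.27 in control replicate 1, the array highest in 6 of the genes, and 16.12, 16.15 and 16.39 in the other control arrays. It was 10.31 in HFCD replicate 2, the array highest in all 7, and 15.36, 14.25 and 15.77 in the other HFCD arrays. HFCSD white blood cells did not share this. There replicate 2, highest in 4, had 15.63, against 15.89, 13.68 and 13.09 in the other arrays. Whole blood went both ways too. At 10 weeks HFCD replicate 1 (14.27) and HFCSD replicate 2 (15.35), highest in 7 and 6 genes, also had the highest platelet signal of their groups. HFCSD replicate 2 at 19 weeks (13.12) and control replicate 1 at 27 weeks (14.93), each highest in 7, had the lowest. HFCD replicate 1 at 19 weeks, highest in 6, had 11.81, against 14.47, 14.81 and 11.77 in the other arrays of its group. The part of platelets in these results was not tested, and in blood RNA fewer cells of a type and less RNA per cell cannot be told apart.

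Other marker lists moved as well. T cell markers, 7 of 12 on the array with CD3D brightest, had median changes of 0.73 and 0.77 under HFCD and HFCSD at 19 weeks and of 0.01 to 0.38 elsewhere, with 0 past adjustment and at most 3 with an unadjusted p under 0.05. Monocyte markers, 6 of 8 on the array with LYZ brightest, had medians of −0.55 to 0.03, and 1 of them, the fatty acid receptor CD36, fell under HFCSD at 27 weeks by 1.57 (adjusted p = 0.0343). Natural killer cell markers, 3 of 6 with GNLY brightest, had medians of −0.26 to 0.55, and the 3 neutrophil markers of 13, with MMP9 brightest, −0.11 to 0.78. For plasmacytoid dendritic cells 2 of 7 markers were on the array, IRF7 and BLNK, with medians of −0.29 to 0.91, and IRF7 is itself an interferon signalling gene. Under limma none of the natural killer, neutrophil and plasmacytoid dendritic cell markers passed adjustment for diet, and in each list at most 2 had an unadjusted p under 0.05 in a comparison. The 1 erythroid marker of 15, the alpha globin gene HBA, was well above background on 1 of 45 arrays and did not pass the filter on signal. The part of these cells was not tested either.

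The question of added sucrose sets HFCSD against HFCD. All 7 genes averaged lower in HFCSD in each of the 4 sets of arrays, under the scaling used here and under all 4 others. The median change was −0.66, −0.20 and −0.60 in whole blood at 10, 19 and 27 weeks and −0.55 in white blood cells, against −0.10, 0.09, −0.15 and −0.0036 over all probes. In whole blood at 27 weeks all HFCSD arrays lay below all HFCD arrays for MX1, with both probes, and for IFITM1. MX1 read 13.47 to 13.999 against 14.59 to 15.01, and IFITM1 13.86 to 14.70 against 14.77 to 15.33. Such separation was seen for 3 of 9 probes there (11.6% of all probes) and for 0 of 9 in whole blood at 10 weeks (1.24%) and 19 weeks (0.547%) and in white blood cells (0.516%). Of 36 probe tests in limma 0 passed adjustment, where 0%, 0%, 0.0111% and 0% of all probes did, and 0 had an unadjusted p under 0.05, against 5.36% of all probe tests. No alternative fit called any of them.

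White blood cells against whole blood at 27 weeks asked where these transcripts sit, and SAMD9 rose in white blood cells under every diet. Whole blood had SAMD9 levels of 10.90, 9.58, 10.84 and 10.55 in control, 10.33, 10.64 and 11.40 in HFCD, and 9.60, 9.95 and 11.002 in HFCSD. White blood cells had 13.22, 12.13, 12.17 and 11.02 in control, 12.47, 13.78, 12.88 and 12.47 in HFCD, and 12.32, 13.14, 12.93 and 12.18 in HFCSD. Within each diet all white blood cell arrays lay above all whole blood arrays. The share of all probes that separated so between the sample types is not given here. The changes were 1.67 (SE 0.44) in control, 2.11 (SE 0.47) in HFCD and 2.46 (SE 0.47) in HFCSD, or 3.18-fold, 4.33-fold and 5.49-fold, with limma's adjusted p of 0.00448, 0.00136 and 0.000259. These 3 calls held under every alternative and with each array left out. Of all probes, 45.3%, 47.5% and 58.8% passed in these comparisons.

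The second MX2 probe rose in white blood cells of HFCD, by 1.29 (SE 0.49), and of HFCSD, by 1.72 (SE 0.49). It read 7.80, 9 and 8.77 in HFCD whole blood against 8.54, 11.10, 9.98 and 9.65 in white blood cells, with 1 of the white blood cell arrays inside the whole blood range. In HFCSD it read 7.79, 7.95 and 7.92 against 9.53, 9.42, 9.21 and 10.26, with all white blood cell arrays above. Limma's adjusted p was 0.0378 and 0.00608. The first was lost without whole blood replicate 1 (adjusted p = 0.171) or 3 (0.0575) and without white blood cell replicate 2 (0.138) or 3 (0.0721), and ran from 0.0105 to 0.0967 over the other alternatives. The second was lost with the bright share as a covariate (0.0985, within a range of 0.00127 to 0.0985). The first MX2 probe had changes of 0.45, 0.91 and 1.01 in control, HFCD and HFCSD and did not pass.

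Of the 9 probes, 1 was called in control, 2 in HFCD and 2 in HFCSD, where 45.3%, 47.5% and 58.8% of all probes were, and 7 of 27 had an unadjusted p under 0.05 against 56.9% of all probe tests. The difference between these shares was not tested. RSAD2 was nearly level between the sample types, with changes of 0.17, 0.10 and 0.06. All 7 genes averaged higher in white blood cells in each diet, except that IFITM1 turned to −0.0016 in HFCD after normexp background correction. The median change was 0.45, 0.67 and 0.88, against 0.17, 0.19 and 0.42 over all probes. Scaling by the 75th percentile moved that of all probes to 0.30, 0.38 and 0.50. T cell markers rose in white blood cells in 6, 3 and 5 of 7 cases in control, HFCD and HFCSD, and natural killer cell markers in 2 of 3 under each diet. The other natural killer marker, GNLY, the brightest of them, averaged lower in white blood cells under each diet. It read 14.48, 14.94 and 14.84 in control, HFCD and HFCSD, against 14.96, 15.475 and 15.1 in whole blood. The monocyte marker FCGR1A rose by 2.85, 2.11 and 2.32, as did CD36 in HFCSD (1.73) and the plasmacytoid dendritic cell marker BLNK in HFCD and HFCSD (1.61 and 2.64). The summed T cell signal was 12.83 (SD 0.14), 12.72 (SD 0.37) and 12.60 (SD 0.28) in whole blood and 13.33 (SD 0.36), 13.42 (SD 0.39) and 13.56 (SD 0.22) in white blood cells. The part of these cells in the SAMD9 and MX2 values was not tested.

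Feeding period in whole blood was compared within each diet. Control, HFCD and HFCSD averaged higher at 19 weeks than at 10 weeks, with median changes of 0.85, 0.90 and 1.23, and at 27 weeks than at 10 weeks, with 0.87, 0.67 and 0.52. Of 42 gene values 41 were higher in the later week, the exception being IFITM1 in HFCD at 19 weeks (−0.17), which scaling by the 75th percentile turned to 0.16. Of 54 probe tests in limma 0 passed adjustment, where 12%, 6.91% and 7.17% of all probes did at 19 weeks in control, HFCD and HFCSD and 20.7%, 5.6% and 10.3% at 27 weeks. Unadjusted p was under 0.05 for 14 of 54, against 26.6% of all probe tests. The lowest adjusted p was 0.0632, for ISG20 in HFCSD at 27 weeks, with a change of 1.44 and all 3 arrays above all 4 of week 10. How many of all probes separated so was not counted for feeding period. Without HFCSD replicate 2 of week 10 this ISG20 change passed, at 0.0303 and a change of 1.76. Other fits called 1 or 2 probes, as given with the alternatives.

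Whether a diet's change differed between sample types or weeks was tested as a difference of changes. With limma 0 of 54 probe tests passed, and 0 had an unadjusted p under 0.05, against 8.83% of all probe tests. Of all probes 0% passed for HFCD in white blood cells against whole blood and 1.38% for HFCSD, and 0%, 0%, 0% and 0% for 19 and 27 weeks against 10 weeks under the 2 diets. The median difference for the genes ran from −0.27 to 0.54 and the lowest adjusted p was 0.512, with no alternative calling any. A call in one week or sample type and not in another is therefore not shown to be a difference between them.

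Other interferon pathway genes were taken from a list of 107, of which 49 were on the array. None of the 3 ligands on the array was bright enough to pass the filter on signal. The 3 receptors averaged from −0.44 to 0.10 in median change across the 8 diet comparisons, with 0 past adjustment by limma and 1 lower at an unadjusted p under 0.05 at 19 weeks in each diet. Signalling genes, 10 of 11 on the array, had medians of 0.16 to 0.47 with 0 past adjustment and up to 5 of 9 with an unadjusted p under 0.05. The RNA and DNA sensors, 8 of 13 on the array, had medians of 0.19 to 0.60, with 0 past adjustment and up to 3 with an unadjusted p under 0.05. USP18, which removes ISG15 and dampens the receptor, was the 1 inhibitor of 4 on the array, with changes of 0.42 to 1.28 and 0 past adjustment, although 4 had an unadjusted p under 0.05. Other effectors and targets, 24 of 64 on the array, had medians of 0.17 to 0.65, against −0.21 to 0.09 for all probes. Beside the unadjusted counts of these lists, 1.73% to 32.2% of all probes had such a p in a diet comparison.

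Of all these, 2 effectors rose past adjustment, both under HFCSD in whole blood at 27 weeks, where 23 effectors were tested and 10.6% of all probes passed. LGALS9, a galectin that binds glycans on T cells, rose by 2.03 (SE 0.49, adjusted p = 0.0314) and CD274, the checkpoint ligand PD-L1, by 1.2 (SE 0.27, adjusted p = 0.0263), each with all 3 HFCSD arrays above all 4 control arrays. In the other 7 comparisons CXCL10, a chemokine that draws activated T cells, had the largest change of the list. It ran from 1.58 in HFCSD white blood cells to 4.03 in HFCD whole blood at 19 weeks. Under HFCD in whole blood LGALS9 changed by 2.00 at 19 weeks and 1.93 at 27 weeks, with all diet arrays above control. Neither passed, with limma's adjusted p of 0.117 and 0.893. At 10 weeks and in white blood cells LGALS9 changed by 1.12 to 1.61 under the 2 diets, with overlap. ISG15, a ubiquitin-like protein, changed by 1.49 and 1.62 under HFCD at 10 and 19 weeks, and by 1.23 and 1.49 under HFCSD. None of these CXCL10 and ISG15 changes passed adjustment, with adjusted p of 0.121 to 1.0.

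Genes like MX1 and RSAD2 were sought among 2351 other probes with a symbol, by Pearson's r over the 45 arrays, as a description, since the arrays share diets and scan days. Among those most like MX1 were USP18 (0.896), ISG15 (0.882), CXCL10 (0.866) and TRIM5 (0.858). Among those most like RSAD2 were CXCL10 (0.895), ISG15 (0.882), LGALS9 (0.854) and a second LGALS9 probe (0.848). Among the effectors themselves, r with MX1 was 0.899 for ISG20, 0.889 for XAF1, 0.880 for RSAD2 and 0.874 for MX2, but 0.652 for IFITM1 and 0.602 for SAMD9. For IFITM1 and SAMD9 it was 0.528 and 0.498 within whole blood and 0.814 and 0.879 within white blood cells. The dim IFIT1 probe had −0.12.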

How the data were processed

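The deposited files hold spot intensities that the authors read with Agilent Feature Extraction (10.5.1.1 and scanner G2505C per the file headers, 9.5.3.1 in the labels), background subtracted within each array. The deposited series table, intensities quantile normalized by the authors, served as an alternative. Control spots were left out, and log2 intensities were quantile normalized over the 45 arrays. Outlier spots were then left out, and the other spots of a probe were averaged. A probe entered a comparison if well above background on every usable array of at least 1 group. Comparisons used limma 3.58.1 (R 4.3.3, statmod 1.5.0, data.table version 1.17.8), fitted over all such probes, two-sided, with Benjamini-Hochberg adjustment at 0.05. The fitting code was tested on simulated data for 1 diet, 1 sample type and 1 difference comparison, with and without the replicate block. Tables used Python 3.11.15, numpy 2.4.6, pandas 2.3.3 and matplotlib 3.10.9. Groups are those of the labels. No array was left out. Members and lists were chosen with earlier results of these data known. Named pathway genes are those called or with the 3 largest changes. Alternatives changed normalization, filter, blocks, samples and test.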

Additional observations from a re-analysis of the deposited data

Results flagged for a closer look

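In 81 tests of whether the highest or lowest array of a group of 4 stood apart, 3 arrays did, where chance gives about 1 in 20. SAMD9 read 12.56 in HFCD whole blood at 19 weeks replicate 1, and 10.47 to 10.55 in the other 3 arrays. The first MX2 probe read 7.69 in control whole blood at 19 weeks replicate 4, and 8.21 to 8.31 in the others. RSAD2 read 9.79 in control whole blood at 27 weeks replicate 1, and 7.68 to 8.02 in the others.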

How the results depend on the processing

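The count of probes called for diet moved in 10 of 15 alternatives, from 0 to 6. Over the alternatives, 159 counts and medians of the 7 genes stayed the same and 16 moved, and with 1 array left out 227 stayed and 8 moved. Among those that stayed are counts of 0 throughout, and the median under HFCSD at 27 weeks, which ran from 0.27 to 1.11 within the spread of its arrays. Over all comparisons and probes of these genes, 13 calls were lost and 22 gained, and 11 and 6 with 1 array left out. Changes of the 7 genes for diet and of probes called between sample types turned sign in 9 cases, and in 6 with 1 array left out.

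For diet against control, 1 probe was called. The count was 0 with scaling by the 75th percentile, with the weaker flag, without a filter and with a replicate block. Of all probes, 11.2%, 7.75%, 1.04% and 11.4% passed there under HFCSD at 27 weeks. The count was also 0 with the slide as a fixed block (14.2% in that comparison) and with the methods' t-test (142 of 17135 probes). It was 0 with the bright share of each array as a covariate, where 0% of all probes passed in that comparison. That 0 is therefore not particular to these genes. With 2 whole blood arrays left out together (HFCD replicate 1 of week 19 and control replicate 4 of week 27) the count was 0, against 14.5%. It was 2 with the slide as a random block (ISG20 and RSAD2 under HFCSD at 27 weeks, where 14.1% of all probes passed) and 6 in a fit of all 45 arrays, 5 of them under HFCD at 19 weeks (3.19% of all probes) and 1 under HFCSD at 27 weeks (12%). In a fit of only the groups compared (1802 of 17135 probes passed) it was 1 again, but RSAD2 (adjusted p = 0.0429) in place of ISG20 (0.0587). With each array left out it ran from 0 to 1. A looser filter tests more probes, and an array left out leaves fewer, and otherwise the cause was not tested. ISG20 under HFCSD at 27 weeks had changes of 1.21 to 2.26 and stayed higher throughout.

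For white blood cells against whole blood, 5 probes were called, 9 with the 75th percentile, and 4 to 7 with 1 array left out. For feeding period 0 were called, 1 with the 75th percentile, 1 with normexp and 2 with only the groups compared (XAF1 in control at 19 weeks, ISG20 in HFCSD at 27 weeks). With 1 array left out the count ran from 0 to 1, the 1 without HFCSD replicate 2 of week 10. HFCSD against HFCD and the differences of changes had 0 in every alternative.

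The slide as a fixed block moved the medians at 19 weeks to 0.46 for HFCD and −0.29 for HFCSD. By its construction it rests on 1 slide with 1 control array. It also turned, under HFCD, SAMD9 to −0.51 and MX2 to −0.24, and under HFCSD, SAMD9 to −0.81, MX2 to −0.77, RSAD2 to −0.29 and ISG20 to −0.0585. Scan day as a block turned SAMD9 under HFCSD at 19 weeks to −0.0745. The bright share as a covariate turned IFITM1 under HFCSD to −0.0088 at 10 weeks and to 0.34 at 27 weeks, and the cause was not tested. With 1 array left out, 3 changes under HFCSD spanned 0, at 10 weeks SAMD9 (−0.0090 to 0.45) and IFITM1 (−0.11 to 0.24), and at 27 weeks SAMD9 (−0.69 to 0.0090).

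Each diet had 5 pigs, bled repeatedly over the feeding period, and the labels do not say whether a replicate number marks 1 pig. Of 41 pairs with the same number 26 had a correlation over 0.1 (median 0.20, −0.44 to 0.62, 12095 probes), and 14 fitted best with their own number. All 3 pairs were over 0.1 for HFCSD at 27 weeks with 10 weeks (0.33, 0.19, 0.50) and with 19 weeks (0.48, 0.28, 0.22). Since other sets of groups held pairs below 0.1, the samples were not treated as paired. With the replicate block, MX1 (adjusted p = 0.0428) and IFITM1 (0.0304) were also called in HFCSD white blood cells against whole blood. Fits without that block called them too, with only the groups compared (0.0281 and 0.0302) and, for IFITM1, with the deposited table (0.0497) and all 45 arrays (0.0461). Signal over background kept IFIT1 and the dim probes of ISG20 and XAF1 out of every test, except in the fit without a filter.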
